A study of Mus musculus with 18 samples.

Results

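The glutathione transferases and the targets of NRF2 are the genes with which a liver cell conjugates, reduces and exports reactive compounds. The set was defined by gene symbol, and its rule used no measured value, but earlier results of these data were known. It took every gene named Gsta, Gstk, Gstm, Gsto, Gstp, Gstt or Gstz followed by a number, which gave 22 transferases, and 18 named genes of the NRF2 and glutathione pathways. It held 40 of the 52636 gene IDs in the count table. Of these 40, 37 had enough reads to be tested, and Gsta1, Gsto2 and Gstt4 did not.

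RNA was sequenced from 18 mouse livers in 6 groups of 3 biological replicates, all harvested at ZT8. Every mouse, KO or WT, had received tamoxifen at 10 mg/mL for 5 days at 8 weeks of age. The BH-HF-KO and BH-HF-WT mice were 45 weeks old, had been on a high-fat diet for 35 weeks, and carried the Arntltm1Weit and Hnf4atm1.1Gonz alleles with Albtm1(cre/ERT2)Mtz. BH-KO and BH-WT mice carried the same alleles and were 10 weeks old without the high-fat diet. H-KO and H-WT mice were also 10 weeks old and carried Hnf4atm1.1Gonz with Albtm1(cre/ERT2)Mtz. The Cre sits at the albumin gene, so recombination is aimed at hepatocytes and other liver cells keep their alleles. The KO and WT mice of a line have the same strain label, and the labels do not give what set the WT mice apart. Hnf4a encodes HNF4α, a nuclear receptor of hepatocytes, and Arntl encodes BMAL1, an activator of the circadian clock.

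Glutathione transferases attach the tripeptide glutathione to electrophilic drugs, pollutants and lipid products so that they can be exported, and the mu, alpha and pi classes are the abundant cytosolic ones in mouse liver. NRF2, the product of Nfe2l2, is a transcription factor that KEAP1 keeps low by handing it to a ubiquitin ligase. When electrophiles or oxidants modify KEAP1, NRF2 builds up, pairs with small MAF proteins and binds antioxidant response elements near genes for glutathione synthesis, NADPH supply, peroxide removal and detoxification. Several Gst genes are known NRF2 targets, and others also answer to the receptors CAR and PXR or to sex-dependent growth hormone signals.

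The results turn on 3 neighbouring genes of the mu class on mouse chromosome 3, which rose together in both 10-week KO groups, and the bases before the start of each are given for that reason. They are from RefSeq (GRCm38.p6), on the minus strand and written 5′ to 3′. Of the 250 bases before the start, only those outside every annotated exon are printed, at chr3:108017974-108018223 for Gstm1 (250 bases, from the upstream of its 2 listed starts), chr3:107986454-107986670 for Gstm2 (217 bases) and chr3:107969284-107969424 for Gstm3 (141 bases).
Gstm1: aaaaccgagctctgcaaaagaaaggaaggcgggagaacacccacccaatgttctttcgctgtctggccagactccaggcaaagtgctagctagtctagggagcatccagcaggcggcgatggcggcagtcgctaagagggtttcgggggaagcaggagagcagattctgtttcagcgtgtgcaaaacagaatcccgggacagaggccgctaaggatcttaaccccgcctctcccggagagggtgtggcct
Gstm2: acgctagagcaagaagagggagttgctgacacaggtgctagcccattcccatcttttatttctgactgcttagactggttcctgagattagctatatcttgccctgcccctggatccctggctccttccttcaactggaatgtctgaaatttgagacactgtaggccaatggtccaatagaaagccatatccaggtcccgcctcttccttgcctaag
Gstm3: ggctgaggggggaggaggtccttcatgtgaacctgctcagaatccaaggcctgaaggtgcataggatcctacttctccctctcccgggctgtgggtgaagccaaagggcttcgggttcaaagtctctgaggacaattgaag

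The core of the antioxidant response element was searched as TGACNNNGC on both strands, in the 250 bases before and 50 bases after each start. Among 32851 RefSeq promoters of that length 12.4% held it, and 11 of the 49 listed for members did. These belong to 10 of the 35 members with a listed promoter, namely Abcc4, G6pdx, Gclm, Gsta3, Gstm5, Gstm7, Nfe2l2, Prdx1, Srxn1 and Txnrd1. The windows of Gstm1, Gstm2 and Gstm3 did not hold these letters, which says nothing of sites elsewhere. The E-box CACGTG, in 7.15% of all promoters, was found in 1 member gene, Abcc4, and the HNF4-type letters CAAAGTCCA, in 0.475% of all promoters, in none. Of the matches, 6 are shown because their genes moved in different directions in the KO livers. Each has 10 bases on either side and is written on the gene's own strand, and the capitals mark the core. A match describes letters and is not a bound site.
Gstm5: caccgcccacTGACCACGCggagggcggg
Gstm7: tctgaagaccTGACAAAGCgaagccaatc
Gclm: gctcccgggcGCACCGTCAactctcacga
Prdx1: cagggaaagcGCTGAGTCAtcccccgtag
Srxn1: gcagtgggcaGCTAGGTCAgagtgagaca
G6pdx: aggcgggtcaGCTCAGTCAaagcacacgc
The match of Gstm5 lies at chr3:107895802-107895830 and that of Gstm7 at chr3:107931725-107931753, the match of Gclm at chr3:122245413-122245441 and that of Prdx1 at chr4:116685456-116685484. For Srxn1 it lies at chr2:152105542-152105570, just after the start, and for G6pdx at chrX:74428919-74428947.

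Several libraries stood apart, and this bears on the results. Total counts were 6846471 to 9816124 per library. Arntl was at 17.4, 22.3 and 24.1 CPM (read counts scaled to a common library size) in BH-KO and at 2.61 CPM or less in every other library, including 0.885, 2.54 and 1.36 CPM in the libraries labelled BH-HF-KO, so that the level seen in BH-KO was missing there. Hnf4a was at 844, 978 and 820.1 CPM in the libraries labelled BH-HF-KO against 768, 783 and 840.3 CPM in BH-HF-WT, at 867, 500.2 and 495 CPM in BH-KO against 789, 889.6 and 772 CPM in BH-WT, and at 565, 658 and 556 CPM in H-KO against 802, 889 and 581 CPM in H-WT, and it passed in none of these comparisons. These are counts over whole genes, which do not show whether the targeted exons were lost. BH-KO replicate 1 lay away from the other BH-KO livers, at -1.32 on the first principal component (48.3% of the variance) against 80.3 and 79.0. H-WT replicate 3 had 1084 CPM of Xist and 5.74 CPM of Ddx3y, a female pattern found in no other library.

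Markers of cell types also differed between groups. The summed level of 6 hepatocyte markers was 59982 to 73279.5 CPM in the libraries labelled BH-HF-KO against 100773 to 126117 CPM in BH-HF-WT, 31009 to 67731 CPM in BH-KO against 92669 to 122467 CPM in BH-WT, and 17285 to 19425 CPM in H-KO against 92954 to 99432 CPM in H-WT. In pieces of whole liver, fewer cells of a type and less RNA per cell cannot be told apart. The 6 bile duct markers reported here summed to 103 to 340.1 CPM in BH-KO against 39.8 to 76.6 CPM in BH-WT and to 110.2 to 171 CPM in H-KO against 32.96 to 57.99 CPM in H-WT. Of the 5 that could be tested, 2 rose in BH-KO (Sox9 and Spp1) and 3 in H-KO (these and Krt7). Cldn4 was at 0.19 CPM or less in every library. Krt19 in BH-KO, at 6.68, 0.951 and 1.85 CPM, overlapped BH-WT, at 3.93, 19.98 and 3.197 CPM. Of the 6 hepatocyte markers 1 fell and 1 rose in BH-KO, 4 fell in H-KO, and 0 passed in the libraries labelled BH-HF-KO. Their median log2 fold change was -0.50 in BH-KO, -1.97 in H-KO and -0.18 in the libraries labelled BH-HF-KO. The groups did not overlap for 1 of them in BH-KO (34.9% of all genes), 5 in H-KO (51.9%) and 1 in BH-HF-KO (10.4%). A summed level follows the most abundant markers of a list. The 10 macrophage markers summed to 57.4 to 342 CPM in BH-KO against 265 to 1228 CPM in BH-WT, where 7 fell, and to 149.6 to 239 CPM in H-KO against 70.2 to 522 CPM in H-WT, where none of the 10 passed. The 8 stellate and matrix markers summed to 201 to 417 CPM in BH-KO against 272 to 446 CPM in BH-WT and to 229.9 to 261 CPM in H-KO against 296 to 350.5 CPM in H-WT, and 2 fell in each. The 8 endothelial markers summed to 88.5 to 121 CPM in BH-KO against 82.6 to 217 CPM in BH-WT, where 2 fell, and to 133 to 148 CPM in H-KO against 142 to 235 CPM in H-WT, where none passed. The part of these markers in the results on the transferases was not tested.

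Transferase transcripts took a larger share of the liver's reads in the 10-week KO livers. All 22 genes together held 0.491, 1.41 and 1.43% of the counts in BH-KO against 0.323 to 0.368% in BH-WT, and 0.854, 1.02 and 1.12% in H-KO against 0.421 to 0.514% in H-WT. The groups did not overlap in either line, although BH-KO replicate 1 was close to the WT livers. A share of all counts also depends on how other genes changed. In CPM the 22 genes summed to 5581 to 11287 CPM in BH-KO against 3410 to 4065 CPM in BH-WT. In H-KO they summed to 6504 to 8154 CPM against 4438 to 5421 CPM in H-WT, and neither line overlapped. The mu class made up 58.5, 73.7 and 75.9% of the transferase reads in BH-KO against 28.4 to 30.4% in BH-WT, and 68.6, 70.7 and 70.01% in H-KO against 27.3 to 34.5% in H-WT. Without Gstm1, Gstm2 and Gstm3 the summed level of the other 19 transferase genes, of all classes, was 2689.7 to 3253 CPM in BH-KO. In BH-WT it was 2509 to 3024 CPM, which overlapped. It was 2158 to 2574 CPM in H-KO against 3353 to 3721 CPM in H-WT, and on this scale every KO liver was lower. CPM use library sizes multiplied by TMM factors, and a larger factor lowers the CPM. These factors were 1.317, 1.352 and 1.378 in H-KO against 0.9499, 0.9494 and 0.9488 in H-WT. The share of all counts held by the 19 genes was not compared, so their fall in H-KO is given for the CPM scale alone. The libraries labelled BH-HF-KO, at 0.3299 to 0.493% of all counts, overlapped BH-HF-WT, at 0.372 to 0.489%.

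**Figure D1:**
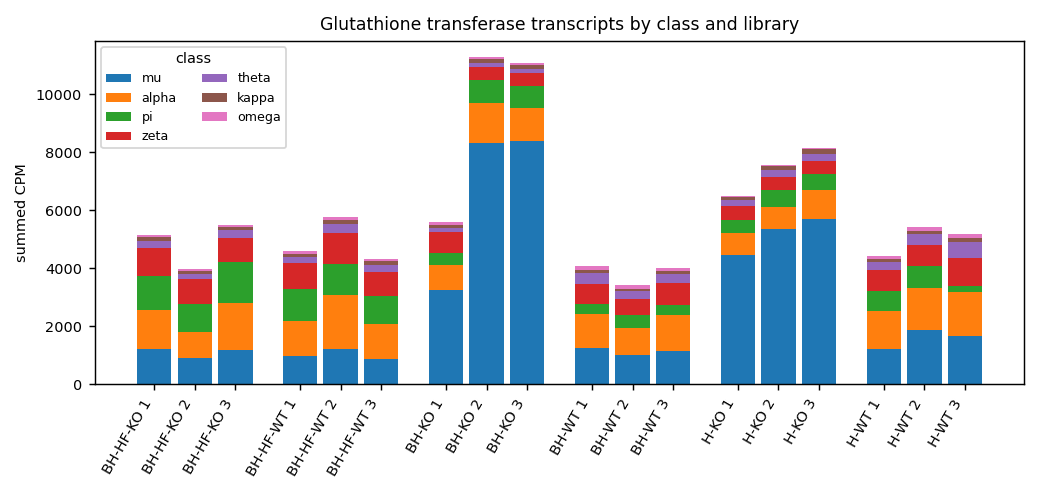
Summed CPM of the 22 glutathione transferase genes in each of the 18 libraries, stacked by class. BH-KO replicates 2 and 3 and the H-KO livers have the tallest bars, and the added height is in the mu class.

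To set genes beside each other, levels were taken per kilobase of exon, with all annotated exons of a gene joined. On that scale Gstm1 was the most abundant transferase in the 4 groups of 10-week livers, at 3233 ± 1443 CPM per kb in BH-KO, 615 ± 57.3 in BH-WT, 2677 ± 305 in H-KO and 889.7 ± 193 in H-WT (SD, n = 3). Gstm3 was next in both KO groups, at 634 ± 345 CPM per kb in BH-KO and 454 ± 103 in H-KO, but its spread overlapped that of Gstp1 in both, at 414 ± 134 in BH-KO and 336 ± 43.2 in H-KO, and that of Gstm2 in BH-KO, at 447 ± 253. In BH-WT the next were Gsta3, at 244 ± 38.96, and Gstp1, at 234 ± 34.5 CPM per kb, which did not differ beyond their spread. In the 45-week livers Gstp1 and Gstm1 led with overlapping spreads, at 758 ± 147 and 621 ± 95.01 CPM per kb in the libraries labelled BH-HF-KO and 663 ± 47.6 and 576 ± 111 in BH-HF-WT. For Gstp1 the joined exons hold 1548 bases and the longest transcript 821. These lengths are 1473 and 1289 for Gstm1 and 1679 and 1064 for Gstm2, and both are 1311 for Gstm3. How Gstm3 compares with Gstp1 and with Gstm2, and how Gstp1 compares with Gstm1 in the 45-week livers, therefore depends on the length used.

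Each KO group was compared with the WT group of its line and setting. In BH-KO 10 members rose, 7 fell and 20 did not pass, which is 45.9% of the 37 tested, where 28.6% of all 13958 tested genes passed (14.3% rose and 14.3% fell). In H-KO 8 rose, 13 fell and 16 did not pass, or 56.8%, where 34.9% of all genes passed (15.8% rose and 19.1% fell). Of the members that passed, 9 in BH-KO (12.8% of all genes) and 12 in H-KO (16.8%) changed at least 2-fold. Passing means an adjusted p below 0.05 by edgeR's quasi-likelihood test, and each log2 fold change (log2FC) has its standard error (SE). The median log2 fold change of the 37 was 0.01 in BH-KO and -0.24 in H-KO, beside 0.025 in BH-KO and -4.72e-05 in H-KO for all tested genes. The groups did not overlap for 19 of 37 members in BH-KO (34.9% of all genes) and for 22 of 37 in H-KO (51.9%). Of all genes, 2000 rose and 1990 fell in BH-KO and 2209 rose and 2662 fell in H-KO. Under upper-quartile scaling 2560 rose and 1720 fell in BH-KO and 3338 rose and 2063 fell in H-KO.

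**Figure D2:**
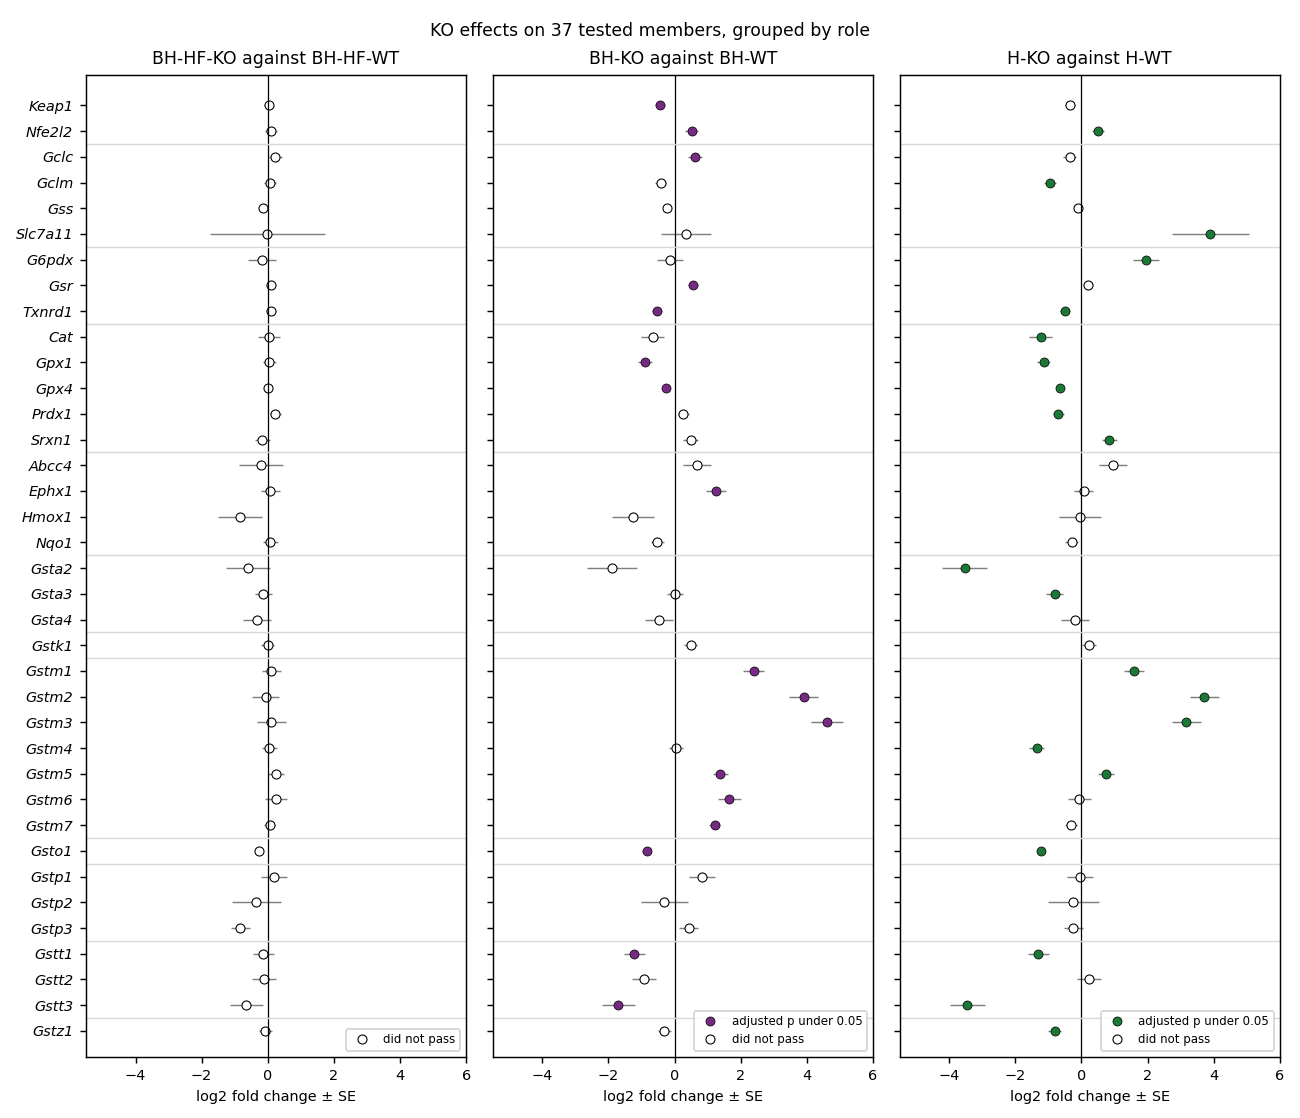
Log2 fold change with its SE for the 37 tested members, by role from top to bottom, in each KO group against its WT group. Filled points passed at an adjusted p under 0.05. Gstm2 and Gstm3 lie farthest to the right in BH-KO and are among the farthest in H-KO, while no point is filled in the left panel, for the libraries labelled BH-HF-KO.

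Gstm1, Gstm2 and Gstm3, of the mu class, rose in both 10-week KO groups. Gstm1 (ENSMUSG00000058135, chromosome 3, 108012255 to 108017973, minus strand), the main mu enzyme of mouse liver, was at 2311, 5894 and 6084 CPM in BH-KO livers against 991, 822 and 905 CPM in BH-WT livers. In the H line Gstm1 was at 3434, 4114 and 4283 CPM in H-KO against 1012, 1578 and 1341 CPM in H-WT. Every KO liver was above every WT liver of its line, and BH-KO replicate 1 was the lowest of the KO livers. The change was 2.39 ± 0.31, adjusted p = 8.51e-05 in BH-KO and 1.59 ± 0.30, adjusted p = 0.000946 in H-KO on the log2 scale. Gstm2 (ENSMUSG00000040562, chromosome 3, 107981702 to 107986453, minus strand) was at 261, 962 and 1029 CPM in BH-KO against 42.4, 50.6 and 57.1 CPM in BH-WT, and at 462, 496 and 580.4 CPM in H-KO against 35.5, 43.1 and 38.1 CPM in H-WT. Again no KO liver overlapped a WT liver, with log2FC 3.91 ± 0.44, adjusted p = 4.05e-05 in BH-KO and 3.72 ± 0.44, adjusted p = 4.29e-05 in H-KO. Gstm3 (ENSMUSG00000004038, chromosome 3, 107963696 to 107969283, minus strand) was at 319.6, 1178 and 997 CPM in BH-KO against 34.8, 28.3 and 39.5 CPM in BH-WT. The H line had 449.7, 619.6 and 715 CPM in H-KO against 37.8, 78.8 and 80.5 CPM in H-WT. Its log2FC 4.60 ± 0.48, adjusted p = 1.91e-05 in BH-KO was the largest rise of any member there, and in H-KO it was 3.18 ± 0.45, adjusted p = 0.000147. Positions are from GENCODE M21 on mm10.

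The 3 calls passed in each line with any 1 library of the compared groups left out. Without BH-KO replicate 1 the log2 fold changes in BH-KO were 2.72 ± 0.21, adjusted p = 4.14e-08 for Gstm1, 4.31 ± 0.29, adjusted p = 2.51e-08 for Gstm2 and 4.99 ± 0.36, adjusted p = 9.62e-08 for Gstm3. Without H-WT replicate 3 those in H-KO were 1.60 ± 0.36, adjusted p = 0.00458 for Gstm1, 3.70 ± 0.55, adjusted p = 0.000517 for Gstm2 and 3.35 ± 0.54, adjusted p = 0.000882 for Gstm3. The 3 genes share sequence with other genes, Gstm1 most with the pseudogene Gstm2-ps1 and next with Gstm3. The main partners of Gstm2 were Gm12499 and Gm6665, and those of Gstm3 were Gm8834 and Gstm2-ps1. Of the 50-base words in their transcripts, 23.1% of those of Gstm1, 9.36% of Gstm2 and 28.8% of Gstm3 occur in another gene, so how reads were divided among them is uncertain. The pseudogene Gstm2-ps1 itself had 26 to 138 counts in BH-KO against 13 to 16 in BH-WT and 63 to 95 in H-KO against 11 to 26 in H-WT, far fewer than Gstm1. Markers of liver zone and of sex also differed between the groups. The 10 markers of pericentral hepatocytes summed to 12268 to 15548 CPM in BH-KO against 8528 to 15713 CPM in BH-WT, where Axin2 and Lgr5 rose, and to 2842 to 4217 CPM in H-KO against 10288 to 16609.8 CPM in H-WT, where 9 fell. The 6 markers higher in female liver summed to 78.4 to 177 CPM in BH-KO against 579 to 866 CPM in BH-WT and 406 to 553 CPM in H-KO against 317 to 1524 CPM in H-WT, and 2 of them fell in each KO group. The 6 markers higher in male liver summed to 52.4 to 1991 CPM in BH-KO against 71.7 to 759 CPM in BH-WT, where 1 rose. In H-KO these 6 summed to 74.7 to 113 CPM against 356 to 2145 CPM in H-WT, where 4 fell. The part of the zone and sex markers in the rise of the mu genes was not tested.

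**Figure D3:**
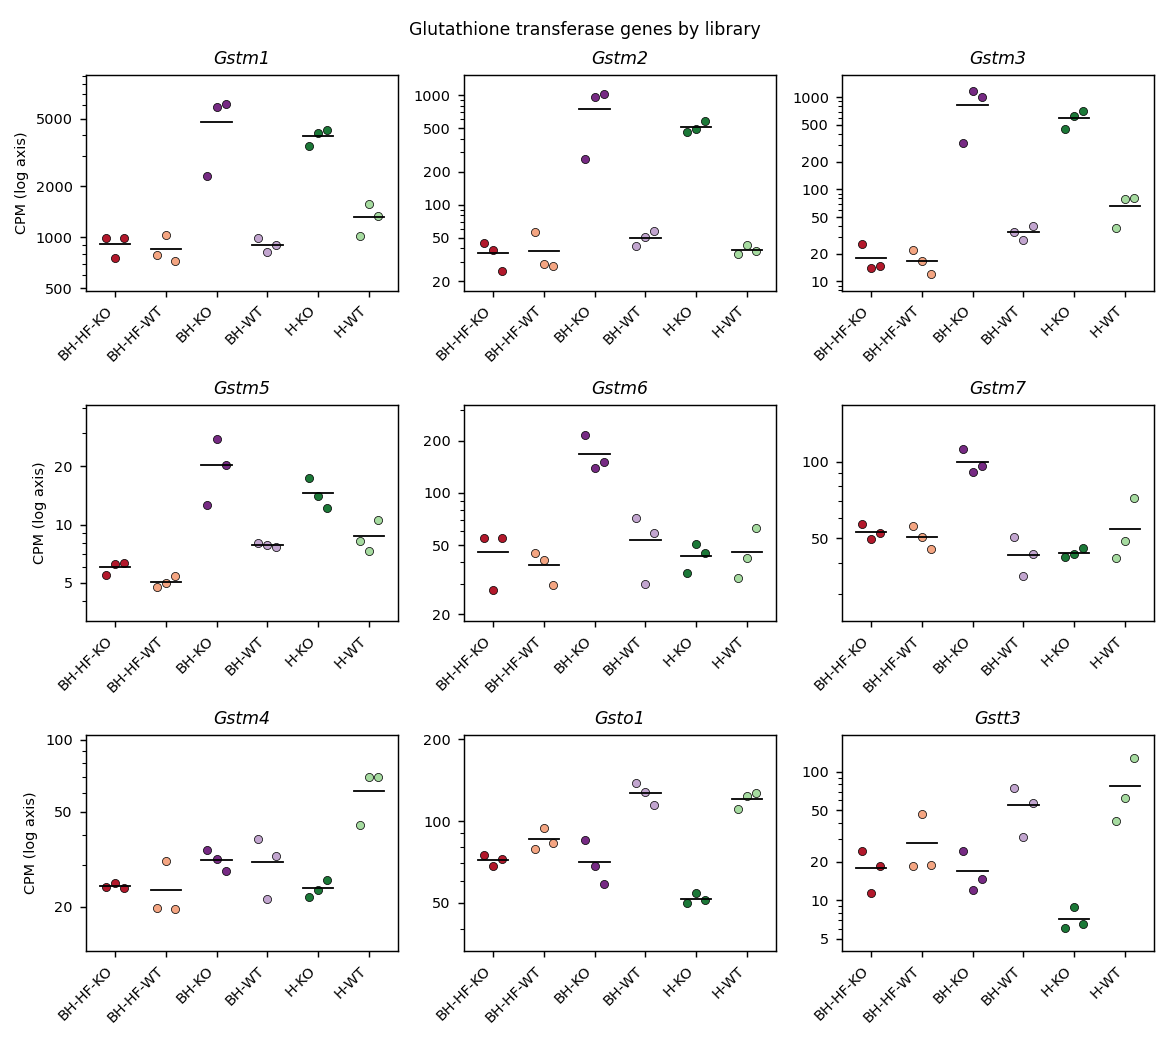
CPM (log axis) of 9 transferase genes in each library, with a line at the group mean. Gstm1, Gstm2 and Gstm3 are higher in every BH-KO and H-KO liver than in any WT liver of the line, Gstm6 and Gstm7 in BH-KO alone, and Gsto1 and Gstt3 are lower in both.

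Of the other 4 mu genes, Gstm5 rose in both lines, Gstm6 and Gstm7 rose in BH-KO, and Gstm4 fell in H-KO. Gstm5 (ENSMUSG00000004032, chromosome 3, 107895821 to 107898686, plus strand), transcribed in the opposite direction from the rest of the cluster, was at 12.6, 27.9 and 20.4 CPM in BH-KO against 7.998, 7.84 and 7.67 CPM in BH-WT. The H-KO livers had 17.4, 14.1 and 12.2 CPM against 8.24, 7.28 and 10.5 CPM in H-WT. It rose in both, by 1.38 ± 0.23, adjusted p = 0.000619 in BH-KO and 0.75 ± 0.23, adjusted p = 0.0196 in H-KO, with no overlap. The H-KO call ended without H-KO replicate 1, H-WT replicate 1 or H-WT replicate 2 (adjusted p of 0.0944, 0.0597 and 0.0871). Gstm5 shares 10.1% of its 50-base words with the overlapping gene 4933431E20Rik. That gene had 48 to 274 counts in BH-KO against 14 to 28 in BH-WT and 156 to 204 in H-KO against 13 to 28 in H-WT, and the strand setting of the counting is not given, so the rise of Gstm5 is uncertain.

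Gstm6 (ENSMUSG00000068762, chromosome 3, 107938847 to 107943749, minus strand) and Gstm7 (ENSMUSG00000004035, chromosome 3, 107926334 to 107931817, minus strand) rose in BH-KO and did not pass in H-KO. Gstm6 was at 214, 139 and 150.4 CPM in BH-KO against 71.98, 29.8 and 58.98 CPM in BH-WT, and at 34.7, 50.9 and 44.9 CPM in H-KO against 32.2, 41.98 and 62.5 CPM in H-WT. The BH livers did not overlap (log2FC 1.65 ± 0.35, adjusted p = 0.00365) and the H livers did (-0.06 ± 0.34, adjusted p = 0.908). Of the 50-base words of Gstm6, 11.5% occur in other genes, most in Gstm3 (6.73%) and next in Gm12494. How reads were divided among these is uncertain. Gm12494 had 3 to 18 counts in BH-KO and 4 to 6 in H-KO, and 0 in BH-WT and H-WT. BH-KO replicate 1, low for Gstm1 to Gstm3, was the highest BH-KO liver for Gstm6 and Gstm7. Gstm7 was at 112, 91.4 and 96.3 CPM in BH-KO against 50.5, 35.3 and 43.2 CPM in BH-WT, and at 41.9, 43.1 and 45.6 CPM in H-KO against 41.8, 48.8 and 72.0 CPM in H-WT. Its change was 1.22 ± 0.17, adjusted p = 0.000156 in BH-KO and -0.31 ± 0.17, adjusted p = 0.167 in H-KO. Gstm4 (ENSMUSG00000027890, chromosome 3, 108040408 to 108044894, minus strand), at the other end of the cluster, fell in H-KO. It was at 34.5, 31.9 and 28.4 CPM in BH-KO against 38.3, 21.7 and 32.6 CPM in BH-WT, and at 22.1, 23.6 and 26.02 CPM in H-KO against 44.01, 69.9 and 69.8 CPM in H-WT. The H livers did not overlap (log2FC -1.36 ± 0.22, adjusted p = 0.000276), whereas the BH livers did (0.03 ± 0.22, adjusted p = 0.924).

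The 7 mu genes lie within 149.1 kb of chromosome 3, in the order Gstm5, Gstm7, Gstm6, Gstm3, Gstm2, Gstm1, Gstm4. The largest changes in both 10-week KO groups were at Gstm3 and Gstm2, in the middle of the cluster, and they were smaller at either end. In BH-KO 6 of the 7 rose (14.3% of all genes), and in H-KO 4 rose and 1 fell (15.8% and 19.1%).

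**Figure D4:**
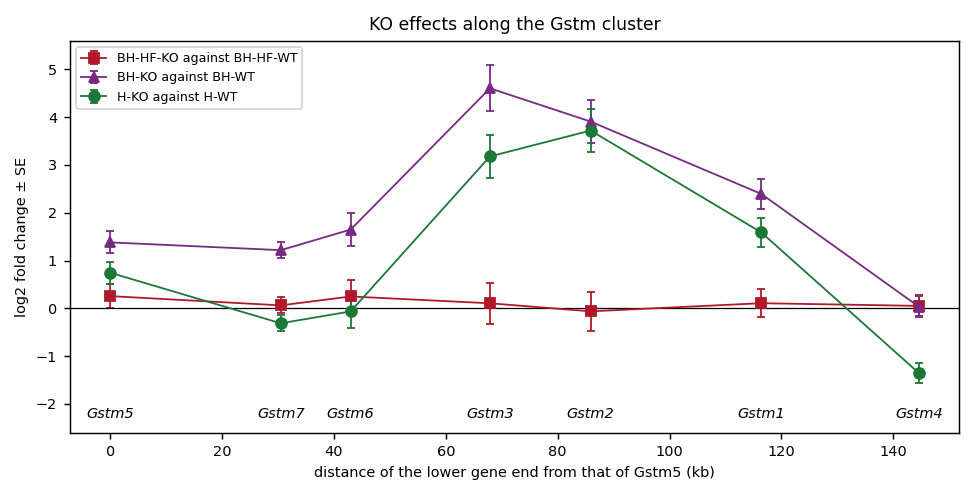
Log2 fold change with its SE of the 7 Gstm genes along chromosome 3, by distance from Gstm5 in kb, for each KO group against its WT group. BH-KO and H-KO peak at Gstm3 and Gstm2, and the libraries labelled BH-HF-KO stay near 0.

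The alpha class fell in part in H-KO. Gsta2 (ENSMUSG00000057933, chromosome 9, 78331018 to 78355788, minus strand), an alpha enzyme that also reduces lipid peroxides, was at 0.891, 1.52 and 1.85 CPM in BH-KO against 3.37, 8.46 and 4.48 CPM in BH-WT, and at 3.01, 3.13 and 2.92 CPM in H-KO against 5.32, 67.3 and 31.9 CPM in H-WT. It fell in H-KO (log2FC -3.52 ± 0.68, adjusted p = 0.00131), where the H-WT livers ranged widely. In BH-KO all livers were lower too, but the difference did not pass (-1.89 ± 0.76, adjusted p = 0.0748). Since 64.2% of its 50-base words occur in other genes, 44.8% of them in Gsta1, its level is uncertain. Gsta3, the most abundant alpha gene and known in mice for clearing the aflatoxin epoxide, was at 1070.5 ± 253 CPM in BH-KO and 1059.6 ± 169 CPM in BH-WT, and at 738 ± 129 CPM in H-KO and 1292 ± 71.6 CPM in H-WT (SD, n = 3). It fell in H-KO (log2FC -0.81 ± 0.25, adjusted p = 0.0192). This call ended without H-KO replicate 1, H-KO replicate 2 or H-WT replicate 3 (adjusted p of 0.0694, 0.0746 and 0.0514) and with upper-quartile scaling (0.0525). Gsta4, which conjugates the lipid product 4-hydroxynonenal, did not pass in either KO group. Gsta1, too low to be tested, was at 0, 1.81 and 5.82 CPM in BH-KO and at 0.988 CPM or less in every other group.

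The omega, theta and zeta genes that moved all fell. Gsto1 (ENSMUSG00000025068, chromosome 19, 47854970 to 47864790, plus strand), a thiol transferase that also reduces dehydroascorbate, was at 85.3, 68.1 and 58.7 CPM in BH-KO against 138, 128 and 114 CPM in BH-WT. Its level in H-KO was 49.9, 54.4 and 51.1 CPM against 111, 124 and 127 CPM in H-WT, with little spread between replicates. Neither line overlapped, and it fell by 0.85 ± 0.12 in BH-KO (adjusted p = 0.000224) and by 1.22 ± 0.13 in H-KO (adjusted p = 1.15e-05) on the log2 scale. Gstt3 (ENSMUSG00000001665, chromosome 10, 75774115 to 75781414, minus strand), a theta enzyme, was at 24.2, 11.98 and 14.7 CPM in BH-KO against 75.3, 31.3 and 57.5 CPM in BH-WT, and at 6.02, 8.86 and 6.53 CPM in H-KO against 41.6, 62.8 and 129 CPM in H-WT. It fell in both (-1.70 ± 0.49, adjusted p = 0.0206 in BH-KO and -3.45 ± 0.53, adjusted p = 0.000341 in H-KO). Its neighbour Gstt1 (ENSMUSG00000001663, chromosome 10, 75783813 to 75798584, minus strand), known for halogenated solvents, was at 120.2, 42.98 and 48.7 CPM in BH-KO against 171, 147 and 173 CPM in BH-WT. The H line gave 73.3, 102 and 87.9 CPM in H-KO against 172, 201 and 279.7 CPM in H-WT. It fell in both as well (-1.22 ± 0.32, adjusted p = 0.012 in BH-KO and -1.31 ± 0.32, adjusted p = 0.00543 in H-KO), and BH-KO replicate 1 was nearer to the BH-WT livers than the other BH-KO livers were. Without BH-KO replicate 2 or 3 the BH-KO calls ended for Gstt1 (adjusted p of 0.0546 and 0.0576) and for Gstt3 (adjusted p of 0.0875 and 0.0757), and that of Gstt3 also without BH-WT replicate 1 (0.0749). Both also ended when the BH livers were fitted alone (adjusted p of 0.106 for Gstt1 and 0.0513 for Gstt3), as did Gstt3 with no filter on low counts (0.0619).

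Gstt2 did not pass in either line, at 21.7 to 77.04 CPM in BH-KO against 87.8 to 134 CPM in BH-WT and 113 to 156 CPM in H-KO against 81.2 to 161 CPM in H-WT. Gstz1, the maleylacetoacetate isomerase of tyrosine breakdown, fell in H-KO, at 436 to 478 CPM against 715 to 970.2 CPM in H-WT (log2FC -0.81 ± 0.20, adjusted p = 0.00478). In BH-KO it was at 708, 451 and 435 CPM against 689.9, 552 and 741 CPM in BH-WT and did not pass (-0.31 ± 0.19, adjusted p = 0.234), whereas without BH-KO replicate 1 it did (-0.58 ± 0.16, adjusted p = 0.0105). The mitochondrial and peroxisomal Gstk1 did not pass in either line (0.49 ± 0.20, adjusted p = 0.0779 in BH-KO and 0.23 ± 0.20, adjusted p = 0.403 in H-KO), but passed in BH-KO without BH-KO replicate 1 (0.67 ± 0.19, adjusted p = 0.00973). Gsto2 was at 0.51 CPM or less in all libraries. A single read of Gstt4 was found, in BH-WT replicate 1, and a count of 0 allows up to 3 counts, or 0.264 to 0.480 CPM depending on the library.

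The pi class did not pass in either 10-week KO group, with 1 WT library deciding much of its spread. Gstp1 (ENSMUSG00000060803, chromosome 19, 4035407 to 4037985, minus strand), the abundant pi enzyme and known to be higher in male than in female mouse liver, was at 402, 782 and 737 CPM in BH-KO against 311, 418 and 357 CPM in BH-WT, and at 445, 572 and 544 CPM in H-KO against 686, 758 and 166 CPM in H-WT. The lowest of all libraries was H-WT replicate 3, the one with the female pattern. With all libraries the change was 0.82 ± 0.39, adjusted p = 0.126 in BH-KO and -0.05 ± 0.39, adjusted p = 0.944 in H-KO. Without H-WT replicate 3 it was 0.82 ± 0.23, adjusted p = 0.0151 in BH-KO, which passed, and -0.48 ± 0.25, adjusted p = 0.171 in H-KO, which did not. Of their 50-base words Gstp1 shared 62.3% and Gstp2 72.6%, mostly with each other, and Gstp2, at 0.594 to 1.67 CPM in BH-KO, was far lower. Gstp3 was at 14.9 to 17.4 CPM in BH-KO against 7.99 to 16.7 CPM in BH-WT and 11.7 to 14.5 CPM in H-KO against 12.6 to 21.99 CPM in H-WT.

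Among the regulators, Nfe2l2 (ENSMUSG00000015839, chromosome 2, 75675513 to 75704641, minus strand), which encodes NRF2, was moderately higher in both 10-week KO groups. It was at 116, 163 and 182 CPM in BH-KO against 93.6, 113 and 117 CPM in BH-WT, and at 185, 163 and 156 CPM in H-KO against 118, 126 and 111 CPM in H-WT. BH-KO replicate 1 fell within the BH-WT range, and the H livers did not overlap. Both passed narrowly (0.51 ± 0.18, adjusted p = 0.0471 in BH-KO and 0.504 ± 0.18, adjusted p = 0.0432 in H-KO), and neither call was stable. Both ended with limma-voom (adjusted p of 0.0665 in BH-KO and 0.0523 in H-KO) and with the replicate block (0.0597 and 0.0505), and that in BH-KO with DESeq2 size factors (0.0524). The call in H-KO ended without any 1 of the 6 H livers (adjusted p of 0.0619 to 0.144). That in BH-KO ended when any 1 BH liver other than BH-KO replicate 1 was omitted, or without H-WT replicate 3 (adjusted p of 0.0524 to 0.197). Keap1 (ENSMUSG00000003308, chromosome 9, 21229730 to 21239361, minus strand), the adaptor that sends NRF2 to degradation, was at 22.4, 31.5 and 30.4 CPM in BH-KO against 40.3, 36.9 and 37.7 CPM in BH-WT. Levels in H-KO were 27.2, 40.0 and 33.8 CPM against 38.6, 40.0 and 49.6 CPM in H-WT. It fell in BH-KO (log2FC -0.44 ± 0.15, adjusted p = 0.0384), a call that ended when any 1 BH liver other than BH-KO replicate 2 was omitted (adjusted p of 0.0596 to 0.101), and it did not pass in H-KO (-0.34 ± 0.15, adjusted p = 0.0853). The BH-KO call also ended with upper-quartile scaling (0.106) and with no filter on low counts (adjusted p = 0.0669). RNA levels do not show how much NRF2 protein was present or active.

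**Figure D5:**
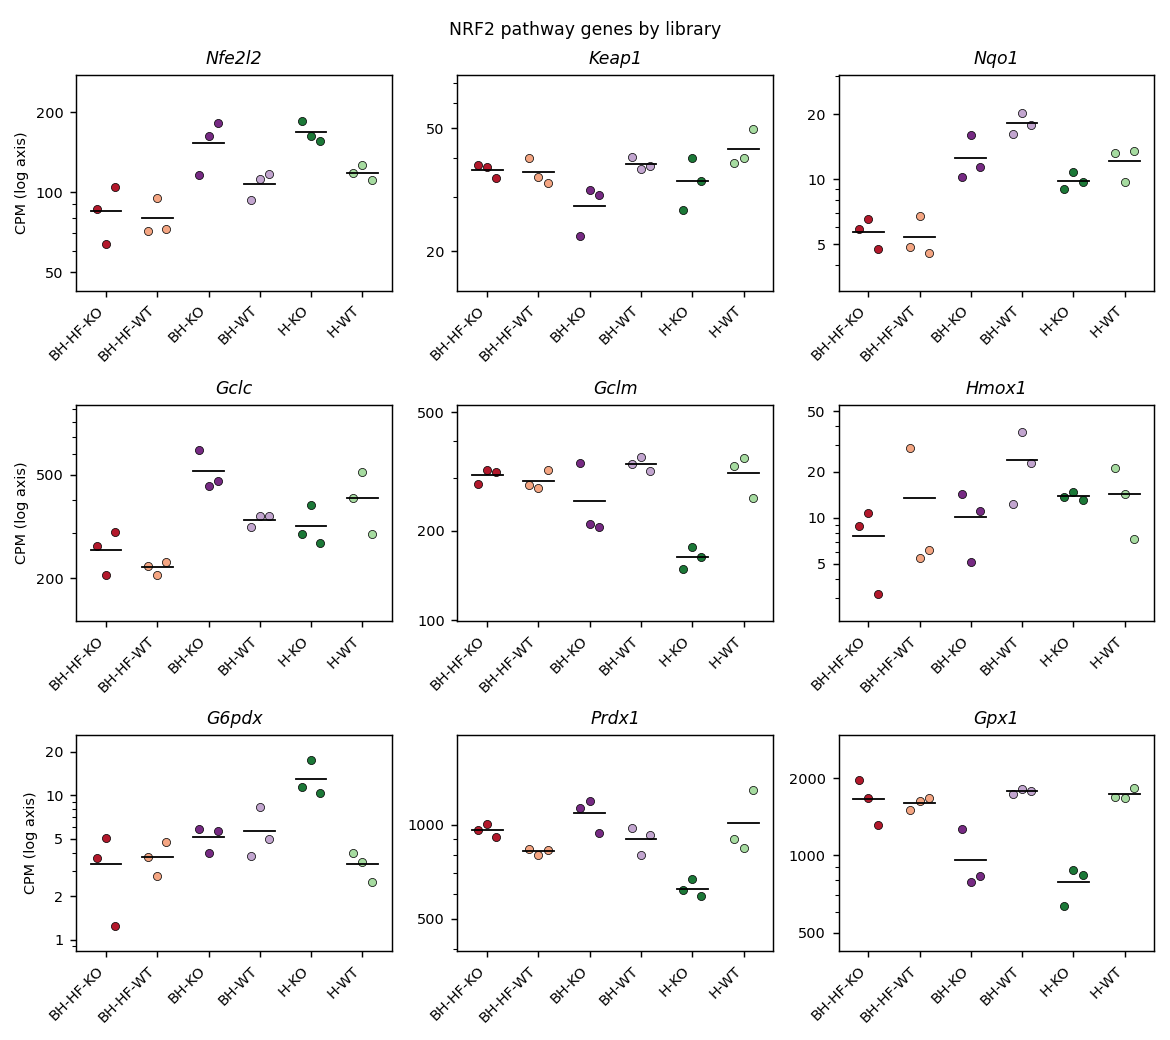
CPM (log axis) of 9 NRF2 and glutathione genes in each library, with a line at the group mean. Nfe2l2 is higher and Gpx1 lower in both 10-week KO groups, G6pdx is higher and Prdx1 lower in H-KO alone, and Nqo1 is lowest in the 45-week livers of either genotype label.

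The classical NRF2 targets did not rise together. Nqo1, the quinone reductase often read as a measure of NRF2 activity, was at 10.2, 15.98 and 11.4 CPM in BH-KO against 16.3, 20.3 and 17.7 CPM in BH-WT, and at 9.03, 10.8 and 9.75 CPM in H-KO against 13.2, 9.75 and 13.4 CPM in H-WT. The BH-KO livers were all below the BH-WT livers without passing (-0.53 ± 0.20, adjusted p = 0.0542), and the H livers overlapped (-0.30 ± 0.20, adjusted p = 0.271). Hmox1, the heme oxygenase, was at 14.3, 5.14 and 11.1 CPM in BH-KO against 12.3, 36.8 and 23.02 CPM in BH-WT, and at 13.7, 14.7 and 13.1 CPM in H-KO against 21.1, 14.4 and 7.28 CPM in H-WT. It did not pass in either (-1.26 ± 0.64, adjusted p = 0.154 in BH-KO and -0.05 ± 0.64, adjusted p = 0.964 in H-KO). Ephx1, the microsomal epoxide hydrolase, rose in BH-KO, to 417, 476 and 435 CPM against 208, 183 and 164 CPM in BH-WT (log2FC 1.26 ± 0.29, adjusted p = 0.00612). In H-KO, at 293 to 367 CPM against 227 to 424 CPM in H-WT, it did not pass (0.07 ± 0.29, adjusted p = 0.876). The exporter gene Abcc4 was at 5.94 to 16.6 CPM in BH-KO against 3.65 to 13.97 CPM in BH-WT and at 14.3 to 17.4 CPM in H-KO against 6.54 to 11.9 CPM in H-WT, and passed in neither.

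The genes of glutathione synthesis went separate ways. Gclc (ENSMUSG00000032350, chromosome 9, 77754535 to 77794485, plus strand) encodes the catalytic subunit of glutamate-cysteine ligase, the first and limiting step. It was at 621, 452 and 476 CPM in BH-KO against 314, 348 and 347 CPM in BH-WT, and at 296, 383 and 275 CPM in H-KO against 408, 515 and 297 CPM in H-WT. It rose in BH-KO without overlap (log2FC 0.62 ± 0.20, adjusted p = 0.0303) and did not pass in H-KO (-0.35 ± 0.20, adjusted p = 0.182). The BH-KO call ended when any 1 BH liver other than BH-KO replicate 2 was omitted (adjusted p of 0.0509 to 0.0879), and without H-WT replicate 3 the H-KO value passed as a fall (-0.54 ± 0.19, adjusted p = 0.0471). Gclm (ENSMUSG00000028124, chromosome 3, 122245557 to 122270732, plus strand) encodes the modifier subunit of the same enzyme. It was at 338, 210.1 and 206 CPM in BH-KO against 335, 354 and 318 CPM in BH-WT, and at 149, 176 and 163 CPM in H-KO against 329, 352 and 258 CPM in H-WT. It fell in H-KO (log2FC -0.94 ± 0.17, adjusted p = 0.000757). In BH-KO replicates 2 and 3 were below all WT livers and replicate 1 was among them (-0.42 ± 0.17, adjusted p = 0.0792), and without replicate 1 Gclm fell there too (-0.69 ± 0.13, adjusted p = 0.000716). Gss, which adds glycine to complete glutathione, was at 58.2 to 63.3 CPM in BH-KO against 59.1 to 83.5 CPM in BH-WT and 70.4 to 73.7 CPM in H-KO against 69.2 to 89.9 CPM in H-WT and passed in neither. Slc7a11, the cystine importer, passed in H-KO on few reads, with 27, 8 and 10 counts in H-KO against 0, 2 and 0 in H-WT (adjusted p = 0.0154). The ratio of the summed reads, 45 in H-KO and 2 in H-WT, per library size was 17.4, with an exact 95% interval of 4.54 to 148 for counting error only. Without H-KO replicate 1, H-WT replicate 1 or H-WT replicate 3 that call ended (adjusted p of 0.0718, 0.0559 and 0.0568), and in BH-KO, at 1.05 to 3.42 CPM against 0.1598 to 2.94 CPM in BH-WT, the groups overlapped.

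Of the 3 genes for recycling thiols and supplying NADPH, G6pdx (ENSMUSG00000031400, chromosome X, 74409483 to 74429194, minus strand) changed most in H-KO and did not pass in BH-KO. It encodes the glucose-6-phosphate dehydrogenase that opens the pentose phosphate pathway. It was at 5.79, 3.99 and 5.64 CPM in BH-KO against 3.79, 8.21 and 4.96 CPM in BH-WT, and at 11.3, 17.4 and 10.3 CPM in H-KO against 3.99, 3.46 and 2.52 CPM in H-WT. Every H-KO liver was above every H-WT liver (log2FC 1.96 ± 0.40, adjusted p = 0.00152), while the BH livers overlapped (-0.15 ± 0.39, adjusted p = 0.803). Gsr, glutathione reductase, rose in BH-KO, at 116 to 169.8 CPM against 89.8 to 104 CPM in BH-WT (log2FC 0.56 ± 0.14, adjusted p = 0.00895), a call that ended without BH-KO replicate 2 (adjusted p = 0.0549). It did not pass in H-KO (0.21 ± 0.14, adjusted p = 0.27). The levels of Txnrd1 (ENSMUSG00000020250, chromosome 10, 82833951 to 82897712, plus strand), thioredoxin reductase, were 161, 117 and 133 CPM in BH-KO against 191, 214 and 183 CPM in BH-WT. In the H line they were 125, 159 and 117 CPM in H-KO against 187, 216 and 167 CPM in H-WT. The groups did not overlap, and it fell in both (-0.52 ± 0.15, adjusted p = 0.0196 in BH-KO and -0.51 ± 0.15, adjusted p = 0.0165 in H-KO). The BH-KO call ended without BH-KO replicate 2, BH-KO replicate 3 or BH-WT replicate 2 (adjusted p of 0.0658 to 0.0954). The H-KO call ended without H-KO replicate 1, H-KO replicate 3 or H-WT replicate 2 (adjusted p of 0.0621 to 0.0768).

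Of the 5 genes of peroxide removal, Gpx1 and Gpx4 fell in BH-KO and 3 did not pass there, and Cat, Gpx1, Gpx4 and Prdx1 fell and Srxn1 rose in H-KO. Gpx1 (ENSMUSG00000063856, chromosome 9, 108338903 to 108340343, plus strand), the main cytosolic glutathione peroxidase, was at 1266, 791 and 829 CPM in BH-KO against 1735, 1821 and 1788 CPM in BH-WT, and at 637, 878 and 842 CPM in H-KO against 1685, 1671 and 1833 CPM in H-WT. It fell in both without overlap (-0.89 ± 0.20, adjusted p = 0.00518 in BH-KO and -1.14 ± 0.20, adjusted p = 0.00065 in H-KO). Cat (ENSMUSG00000027187, chromosome 2, 103453849 to 103485160, minus strand), the peroxisomal catalase, was at 3033, 898 and 1073 CPM in BH-KO against 2787, 2237 and 2906 CPM in BH-WT. H-KO livers had 1167, 1321 and 1341 CPM against 2778, 3405 and 2776 CPM in H-WT. It fell in H-KO (log2FC -1.23 ± 0.34, adjusted p = 0.0117). BH-KO replicate 1 lay above all BH-WT livers, the other BH-KO livers below them, and Cat did not pass in BH-KO with all libraries (-0.66 ± 0.34, adjusted p = 0.153) and fell without replicate 1 (-1.42 ± 0.19, adjusted p = 2.82e-05).

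Gpx4, the peroxidase of membrane lipids, was at 122 ± 4.89 CPM in BH-KO and 147 ± 10.6 CPM in BH-WT, and at 96.8 ± 4.84 CPM in H-KO and 152 ± 1.81 CPM in H-WT (SD, n = 3). It fell in both (-0.27 ± 0.09, adjusted p = 0.0307 in BH-KO and -0.65 ± 0.09, adjusted p = 7.79e-05 in H-KO). The call in BH-KO ended with upper-quartile scaling (adjusted p = 0.109) and with no filter on low counts (0.213), and when BH-WT replicate 1, BH-WT replicate 2, BH-KO replicate 2 or BH-KO replicate 3 was omitted (adjusted p of 0.0502 to 0.126). A pseudogene, Gpx4-ps2, shares 61.7% of its 50-base words. Prdx1 (ENSMUSG00000028691, chromosome 4, 116685544 to 116700822, plus strand), the cytosolic peroxiredoxin, was at 1133, 1188 and 941 CPM in BH-KO against 977, 803 and 928 CPM in BH-WT, and at 616, 668 and 591 CPM in H-KO against 899, 843 and 1293 CPM in H-WT. It fell in H-KO (log2FC -0.69 ± 0.17, adjusted p = 0.00486) and did not pass in BH-KO (0.27 ± 0.17, adjusted p = 0.239). Srxn1 (ENSMUSG00000032802, chromosome 2, 152105516 to 152111376, plus strand), which repairs over-oxidised peroxiredoxins, was at 44.6, 62.95 and 71.9 CPM in BH-KO against 37.2, 52.5 and 38.8 CPM in BH-WT. In H-KO there were 65.2, 102 and 62.6 CPM against 50.7, 44.3 and 33.6 CPM in H-WT, without overlap. It rose in H-KO (log2FC 0.84 ± 0.22, adjusted p = 0.00885), a call that ended without H-KO replicate 2 (adjusted p = 0.0609). It did not pass in BH-KO (0.48 ± 0.22, adjusted p = 0.116) except without BH-KO replicate 1 (0.65 ± 0.22, adjusted p = 0.0288).

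The BH-KO and H-KO comparisons have no library in common. Of the 37 tested members, 11 passed in both and in the same direction, which is 64.7% of the 17 that passed in BH-KO and 52.4% of the 21 that passed in H-KO. Over all tested genes 2010, or 14.4%, did so, which is 50.4% of those that passed in BH-KO and 41.3% of those that passed in H-KO. Gstm1, Gstm2, Gstm3, Gstm5 and Nfe2l2 rose in both, and Gsto1, Gstt1, Gstt3, Gpx1, Gpx4 and Txnrd1 fell in both. In BH-KO alone 6 passed, and in H-KO alone 10, which does not show by itself that the lines differ. Leaving out each library of the compared groups in turn left 9 of the 17 calls in BH-KO and 15 of the 21 in H-KO past the threshold every time. In BH-KO 21 members passed once replicate 1 of that group was omitted, and 10 once its replicate 3 was. Of all genes, 5916 of 14415 and 2416 of 14315 passed in these 2 fits, against 3990 of 13958 with all libraries. When the BH livers were fitted alone 8 passed, and the calls of Gclc, Gpx1, Gpx4, Gsr, Gstt1, Gstt3, Keap1, Nfe2l2 and Txnrd1 ended (adjusted p of 0.0513 to 0.207). In that fit 1096 of all 12645 tested genes passed.

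Whether the KO effect differed between the lines was tested directly, as the log2 fold change in BH minus that in H. Of the 37 members 4 passed, or 10.8%, where 6.06% of all genes passed. In 3 of them the effect was higher in BH (3.76% of all genes) and in 1 it was lower (2.3%). Over all genes 525 were higher and 321 lower, and 427 and 395 under upper-quartile scaling. The effect on Gstm7 was higher in BH by 1.53 ± 0.24 (adjusted p = 0.00267), that on Gstm4 by 1.39 ± 0.30 (adjusted p = 0.0162) and that on Prdx1 by 0.96 ± 0.24 (adjusted p = 0.0273). For Gstm7 the parts were a rise in BH-KO (1.22) beside -0.31 in H-KO, and for Gstm4 and Prdx1 falls in H-KO (-1.36 and -0.69) beside 0.03 and 0.27 in BH-KO. The effect on G6pdx was lower in BH (-2.11 ± 0.56, adjusted p = 0.0366), with a rise in H-KO. The Gstm7 and Gstm4 differences passed without any 1 of the 12 libraries. That of Prdx1 ended without BH-WT replicate 2 or 3, any 1 H-KO liver or H-WT replicate 3 (adjusted p of 0.0505 to 0.0771). That of G6pdx ended without BH-KO replicate 2, BH-WT replicate 2 or 3, any 1 H-KO liver, or H-WT replicate 2 or 3 (adjusted p of 0.0556 to 0.12). Gstm6 (1.71 ± 0.48, adjusted p = 0.0511) and Gclc (0.97 ± 0.28, adjusted p = 0.052) missed the threshold. Without BH-KO replicate 1 the difference also passed for Gstm1 (1.14 ± 0.27, adjusted p = 0.0188) and Gstm3 (1.82 ± 0.44, adjusted p = 0.0245), which did not pass with all libraries (0.81 ± 0.42, adjusted p = 0.259 and 1.43 ± 0.59, adjusted p = 0.157).

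In the 45-week livers on the high-fat diet no member passed between the libraries labelled BH-HF-KO and BH-HF-WT, where 0% of all 13958 genes passed. With limma-voom and with DESeq2 the number of members was also 0, and 1 member, Gstp3, had an unadjusted p below 0.05, as had 490 of all genes. There was no overlap between the groups for 4 members, Gstm5, Gsto1, Gstp3 and Prdx1 (10.4% of all genes). Gstm1 was at 995, 753 and 994 CPM in BH-HF-KO against 786, 1035 and 726 CPM in BH-HF-WT. Gstm2 was at 44.9, 38.4 and 24.6 CPM in BH-HF-KO against 56.7, 28.5 and 27.3 CPM in BH-HF-WT, and Gstm3 at 25.5, 14.01 and 14.6 CPM in BH-HF-KO against 21.8, 16.5 and 11.9 CPM in BH-HF-WT. All 3 overlapped between the labels, and Gstm3 was below the BH-WT range in each of the 6 livers. Of the pathway genes, Nfe2l2 was at 86.6, 63.9 and 105 CPM in BH-HF-KO against 71.4, 95.1 and 72.9 CPM in BH-HF-WT, and Keap1 at 37.9, 37.5 and 34.6 CPM in BH-HF-KO against 40.1, 34.7 and 33.4 CPM in BH-HF-WT. Nqo1 was at 5.902, 6.54 and 4.76 CPM in BH-HF-KO against 4.87, 6.74 and 4.58 CPM in BH-HF-WT, and Hmox1 at 8.85, 10.8 and 3.18 CPM in BH-HF-KO against 28.9, 5.496 and 6.16 CPM in BH-HF-WT. All 4 overlapped, with 1 high BH-HF-WT liver for Hmox1. Gclc was at 266, 207 and 301 CPM in BH-HF-KO against 224, 206 and 232 CPM in BH-HF-WT, and Gclm at 288, 320.0 and 314 CPM in BH-HF-KO against 284, 277 and 320.1 CPM in BH-HF-WT, also with overlap.

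The KO effect in the 45-week setting was then set against that at 10 weeks, as the log2 fold change in BH-HF minus that in BH. It differed for 4 of the 37 members, or 10.8%, where 6.1% of all genes passed (3.45% higher and 2.65% lower), and all 4 were mu genes with a lower effect in BH-HF. Over all genes 481 were higher and 370 lower, and 430 and 549 under upper-quartile scaling. Gstm3 had -4.500 ± 0.62, adjusted p = 0.00104, Gstm2 -3.97 ± 0.59, adjusted p = 0.00166, Gstm1 -2.29 ± 0.42, adjusted p = 0.0058 and Gstm7 -1.16 ± 0.24, adjusted p = 0.0116. Each of these passed with any 1 of the 12 libraries omitted. When BH-KO replicate 1 was left out, 14 members differed, among them Cat (1.47 ± 0.25, adjusted p = 0.000487), Gstt1 (1.70 ± 0.30, adjusted p = 0.000607), Gpx1 (1.18 ± 0.23, adjusted p = 0.00142) and Gclm (0.76 ± 0.18, adjusted p = 0.00567). Over all genes the number also grew in that fit, to 3046 of 14415 tested, against 851 of 13958 with all libraries. The BH-HF-KO libraries did not have the Arntl level seen in BH-KO, so that age, diet and the state of the deletion cannot be told apart in these differences.

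Between the WT livers of the BH line, 6 members passed between the 45-week high-fat group and the 10-week group, or 16.2%, where 7% of all genes passed. Of these 2 rose (2.79% of all genes) and 4 fell (4.21%), and 16 of the 37 did not overlap between the groups (31%). Nqo1 fell, to 4.87, 6.74 and 4.58 CPM in BH-HF-WT against 16.3, 20.3 and 17.7 CPM in BH-WT (log2FC -1.74 ± 0.21, adjusted p = 0.0007). Its level was as low, at 4.76 to 6.54 CPM, in the livers labelled BH-HF-KO. This was the only one of the 6 calls to pass without any 1 of the 6 livers. Abcc4, an exporter of organic anions and bile acids, fell to 1.41, 1.12 and 1.002 CPM in BH-HF-WT against 3.65, 13.97 and 4.64 CPM in BH-WT (log2FC -2.65 ± 0.54, adjusted p = 0.0118). Its call ended without BH-HF-WT replicate 2 or BH-WT replicate 2 (adjusted p of 0.0562 to 0.0624). Gsto1 fell to 78.8, 94.6 and 83.3 CPM in BH-HF-WT against 138, 128 and 114 CPM in BH-WT (-0.57 ± 0.12, adjusted p = 0.0156), and its call ended when BH-HF-WT replicate 1, BH-HF-WT replicate 3 or BH-WT replicate 2 was omitted (adjusted p of 0.0534 to 0.0596). Gpx4 fell to 115, 122 and 109.8 CPM in BH-HF-WT against 143, 159 and 139 CPM in BH-WT (-0.35 ± 0.09, adjusted p = 0.028), a call that ended without any 1 BH-HF-WT liver or BH-WT replicate 2 (adjusted p of 0.0602 to 0.144).

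Gstp1 and Gstp3, of the pi class, rose in the older WT livers. Gstp1 was at 1077, 1062 and 942 CPM in BH-HF-WT against 311, 418 and 357 CPM in BH-WT, without overlap (log2FC 1.504 ± 0.40, adjusted p = 0.0355), and Gstp3 at 32.1, 25.7 and 14.3 CPM in BH-HF-WT against 16.7, 11.3 and 7.99 CPM in BH-WT, with overlap (1.001 ± 0.28, adjusted p = 0.0453). The call of Gstp1 ended without any 1 of the 6 livers (adjusted p of 0.0717 to 0.103). That of Gstp3 ended when BH-HF-WT replicate 1 or 2, or BH-WT replicate 2 or 3, was omitted (adjusted p of 0.139 to 0.174). The 6 markers that are higher in male liver summed to 7069 to 7564 CPM in BH-HF-WT against 71.7 to 759 CPM in BH-WT, and 2 of them rose. The 6 that are higher in female liver summed to 8.85 to 174 CPM in BH-HF-WT against 579 to 866 CPM in BH-WT, and 2 of them fell. By Xist and Ddx3y all of these livers had a male pattern, and the part of these markers in the Gstp results was not tested. Outside the main settings, limma-voom ended the calls of Abcc4, Gstp1 and Gstp3 (adjusted p of 0.0663 to 0.0794), and using no filter on low counts those of Gpx4, Gstp1 and Gstp3 (0.0677 to 0.197). Fitting the compared groups alone ended those of Gpx4 and Gstp3 (0.0667 and 0.144), and the replicate block that of Gstp3 (0.0634). Age and diet differ together between BH-HF-WT and BH-WT and cannot be told apart.

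Between the WT livers of the lines at 10 weeks, BH-WT and H-WT, no member passed, where 0.165% of all genes passed, and 5 members did not overlap between the groups (14.7% of all genes). With edgeR 6 members had an unadjusted p below 0.05, as had 1301 of all genes. DESeq2 called 2 members and 101 of all genes, and limma-voom 0 members and 12 of all genes. The member nearest to the threshold was Gstm4, at 38.3, 21.7 and 32.6 CPM in BH-WT against 44.01, 69.9 and 69.8 CPM in H-WT, without overlap (-0.99 ± 0.22, adjusted p = 0.091).

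Other genes of the pathway were read from lists that hold no member. Of 33 tested genes listed as NRF2 targets, 8 rose and 7 fell in BH-KO, and 7 rose and 8 fell in H-KO. That is 45.5% in each, where 28.6% of all genes passed in BH-KO and 34.9% in H-KO. Whether these changes ran through NRF2 was not tested. The largest rises with at least 5 CPM were Cyp2b10 (1.75 ± 0.55, adjusted p = 0.0298) and Ugdh (1.46 ± 0.27, adjusted p = 0.00144) in BH-KO, and Ptgr1 (2.01 ± 0.33, adjusted p = 0.000379) and Tsku (1.82 ± 0.59, adjusted p = 0.0266) in H-KO, given as log2 fold changes. The largest falls were Cyp2a5 (-3.16 ± 0.56, adjusted p = 0.00109) and Vnn1 (-1.86 ± 0.54, adjusted p = 0.0211) in BH-KO, and Ces1g (-2.03 ± 0.42, adjusted p = 0.00207) and Akr7a5 (-1.88 ± 0.15, adjusted p = 1.83e-06) in H-KO. In BH-HF-WT against BH-WT none rose and 9 fell (4.21% of all genes fell), with the largest falls in Cyp2b10 and Me1 (-2.51 ± 0.46, adjusted p = 0.00872), the NADPH-producing malic enzyme. No gene of this list passed in the libraries labelled BH-HF-KO.

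Of 30 other glutathione and thiol enzymes tested, 3 rose and 8 fell in BH-KO (36.7%, beside 28.6% of all genes) and 4 rose and 11 fell in H-KO (50%, beside 34.9%). Gpx3, the secreted peroxidase, was at 63.8 ± 59.9 CPM in BH-KO and 3.41 ± 3.31 CPM in BH-WT, and at 118 ± 43.99 CPM in H-KO and 2.36 ± 1.27 CPM in H-WT (SD, n = 3). It rose in both (4.18 ± 0.89, adjusted p = 0.00423 in BH-KO and 5.65 ± 0.95, adjusted p = 0.000612 in H-KO), as did Ggct, which breaks down gamma-glutamyl peptides (1.41 ± 0.21, adjusted p = 0.000317 in BH-KO and 1.39 ± 0.23, adjusted p = 0.000334 in H-KO). Glrx5, the mitochondrial glutaredoxin of iron-sulfur cluster assembly, fell in both (-0.94 ± 0.17, adjusted p = 0.0013 in BH-KO and -1.47 ± 0.18, adjusted p = 3.23e-05 in H-KO). The largest falls were those of Mgst3 in BH-KO (-1.47 ± 0.25, adjusted p = 0.000717) and of Sod1, the cytosolic superoxide dismutase, in H-KO (-2.02 ± 0.26, adjusted p = 5.83e-05). Of 16 regulators and partners of NRF2, 2 rose and 6 fell in BH-KO (50%, beside 28.6% of all genes) and 2 rose and 5 fell in H-KO (43.8%, beside 34.9%). Bach1, a repressor that competes with NRF2 at the same elements, fell in both, to 30.8 ± 2.83 CPM in BH-KO against 79.6 ± 12.8 CPM in BH-WT (-1.37 ± 0.19, adjusted p = 0.000156) and to 41.9 ± 3.75 CPM in H-KO against 66.2 ± 6.57 CPM in H-WT (-0.66 ± 0.19, adjusted p = 0.0135). Maff, a small MAF partner, fell in BH-KO (-1.77 ± 0.34, adjusted p = 0.00156), Atf4 fell in H-KO (-0.74 ± 0.20, adjusted p = 0.0108), and Btrc, part of another ubiquitin ligase for NRF2, rose in both (0.55 ± 0.17, adjusted p = 0.0209 in BH-KO and 0.63 ± 0.16, adjusted p = 0.00758 in H-KO). Nfe2l3, a relative of NRF2, rose in BH-KO (1.61 ± 0.40, adjusted p = 0.00826) and Trp53 in H-KO (0.47 ± 0.13, adjusted p = 0.012).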

How the data were processed

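The deposited data are 1 table of raw counts, whole numbers of reads for each gene without normalization, with 1 column per library. All 18 columns were matched to samples by title and used. Per the labels' protocols, Trizol was used to take total RNA from frozen liver, and libraries followed Illumina methods. The aligner was STAR 2.6 and the build mm10, per the submitters' processing notes. Not given in the sources used here are the counter, its annotation, and its handling of strand and of reads with several matches.

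Counts were analysed with edgeR 4.0.16 in R 4.3.3: filterByExpr by group (minimum count 10, which kept 13958 genes), TMM scaling, 1 mean per group over all 18 libraries (12 residual degrees of freedom), and two-sided robust quasi-likelihood tests, with p-values adjusted by Benjamini-Hochberg over all tested genes and a threshold of 0.05. CPM are relative to the TMM-scaled library size. There were 7 comparisons. The replicates are labelled biological. Intervals and floors cover counting error only.

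The members, lists and alternatives were chosen with earlier results of these data known. By rule, Nfe2l2, Keap1, Nqo1, Gclc, Gclm and Hmox1 are given by library in each KO comparison, with the 5 largest rises and falls that passed and reached 5 CPM in 1 group, and up to 4 per direction in the other comparisons. Values of further members were chosen after they were seen. Of each other list, up to 2 rises and 2 falls are named per comparison. Results of some bile duct markers are left out.

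The alternatives were DESeq2 size factors, upper-quartile factors, no filter, a filter of 1 CPM in 3 libraries, DESeq2 1.42.0, limma-voom (limma 3.58.1), the compared groups fitted alone, the replicate number as a block, a further 2-fold threshold, and leaving out each library, or both of the livers that stood apart. Leaving out BH-KO replicate 1 or H-WT replicate 3 in comparisons that do not use them was added after the data were seen. Promoters came from RefSeq; gene positions, exon lengths and shared 50-base words from GENCODE M21.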

Additional observations from a re-analysis of the deposited data

Results flagged for a closer look

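A total of 8 results on members were picked out because the KO effect in 1 setting differed from that in another by a direct test, with edgeR's quasi-likelihood test and adjustment over all genes. Between the BH and H lines (BH minus H, on the log2 scale), the difference was 1.39 for Gstm4 (SE 0.30, adjusted p = 0.0162), 1.53 for Gstm7 (SE 0.24, adjusted p = 0.00267), 0.96 for Prdx1 (SE 0.24, adjusted p = 0.0273) and -2.11 for G6pdx (SE 0.56, adjusted p = 0.0366). Between the 45-week high-fat setting and the 10-week setting (BH-HF minus BH), it was -2.29 for Gstm1 (SE 0.42, adjusted p = 0.0058), -3.97 for Gstm2 (SE 0.59, adjusted p = 0.00166), -4.50 for Gstm3 (SE 0.62, adjusted p = 0.00104) and -1.16 for Gstm7 (SE 0.24, adjusted p = 0.0116). All 8 rest on groups of 3 livers, and the last 4 on the libraries labelled BH-HF-KO, whose Arntl levels were 0.885 to 2.54 CPM, against 1.03 to 2.004 CPM in BH-HF-WT. The groups were too small to look for single outlying values.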

How the results depend on the processing

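The number of members past the threshold was within 1.5 times the reported count in most settings. In BH-KO against BH-WT it was 17, and 8 with the compared groups fitted alone, where 1096 of all 12645 tested genes passed. With a further 2-fold threshold it was 9 there and 12 in H-KO against H-WT, where it was 21. The DESeq2 test gave 7 in BH minus H and 8 in BH-HF minus BH, against 4 in each, and 2 in BH-WT against H-WT, against 0. Of all genes it called 1400, 1310 and 101 in these, where edgeR called 846, 851 and 23. In BH-HF-WT against BH-WT it was 6, and 3 with limma-voom and with no filter on low counts. Of all genes 977 passed there, 665 with limma-voom and 681 with no filter. Without both BH-KO replicate 1 and H-WT replicate 3 it was 24 in BH-KO, 8 in BH minus H, 15 in BH-HF minus BH, 14 in BH-HF-WT against BH-WT and 1 in BH-WT against H-WT. Of all 14426 genes tested in that fit, 6198, 884, 3327, 2118 and 62 passed in these comparisons, in the same order. With 1 library left out it ranged from 10 to 21 in BH-KO (21 without BH-KO replicate 1), 16 to 22 in H-KO, 2 to 8 in BH minus H, 4 to 14 in BH-HF minus BH, 1 to 12 in BH-HF-WT against BH-WT and 0 to 2 in BH-WT against H-WT, and it was 0 throughout for the libraries labelled BH-HF-KO. The number over all genes moved as well, from 2330 to 5916 in BH-KO and from 353 to 3046 in BH-HF minus BH. The cause was not tested. Of 1095 log2 fold changes recomputed for named members, 956 kept their direction and their side of the threshold, 116 lost their call, 11 gained one and 12 changed sign.

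Each value that changed sign belonged to a member that had not passed. On the log2 scale, Hmox1 in H-KO was 0.062 with limma-voom, 0.062 with the replicate block and 0.10 with upper-quartile factors, and ranged from -0.37 to 0.34 with libraries left out. In the libraries labelled BH-HF-KO, leaving 1 library out gave a range of -1.22 to 0.38 for Hmox1, -0.084 to 0.26 for Nfe2l2, -0.027 to 0.27 for Nqo1 and -0.029 to 0.11 for Keap1, which was -0.0023 with no filter. Upper-quartile factors shifted the median over all genes upward by 0.154 in H-KO, and there ended the calls of Gsta3 and Txnrd1 (adjusted p of 0.0525 and 0.0589). In BH-KO they ended those of Gpx4 and Keap1 (0.109 and 0.106).

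Same-numbered livers did not deviate together (correlations of -0.254 to 0.0641), and the labels do not say that a number pairs livers. With the replicate block 17 members passed in BH-KO, 20 in H-KO, 3 in BH minus H, 4 in BH-HF minus BH and 5 in BH-HF-WT against BH-WT, and none in the other comparisons. The block ended the calls of G6pdx in BH minus H (adjusted p = 0.0538), Nfe2l2 in BH-KO (0.0597) and in H-KO (0.0505), and Gstp3 in BH-HF-WT against BH-WT (0.0634). Groups of 3 livers limit which small changes could be called.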

Other observations

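Of 14 tested receptors and factors of the response to foreign compounds, 1 rose and 6 fell in BH-KO (50%, beside 28.6% of all genes) and 2 rose and 7 fell in H-KO (64.3%, beside 34.9%). Nr1i3, which encodes the receptor CAR, fell in both, to 4.98 ± 6.502 CPM in BH-KO against 53.01 ± 21.9 CPM in BH-WT (log2FC -3.56 ± 0.75, adjusted p = 0.00415) and to 1.21 ± 0.4102 CPM in H-KO against 42.3 ± 9.95 CPM in H-WT (-5.10 ± 0.86, adjusted p = 0.000637; mean ± SD, n = 3). Cebpa, a factor of hepatocyte identity, fell in BH-KO (-2.20 ± 0.13, adjusted p = 7.26e-08), and Ppara, the receptor that drives fatty acid oxidation, in H-KO (-2.51 ± 0.39, adjusted p = 0.000328). Arnt, the partner of the aryl hydrocarbon receptor, rose in BH-KO (0.44 ± 0.11, adjusted p = 0.00907), and Por, the electron donor of the cytochromes P450, in H-KO (1.29 ± 0.38, adjusted p = 0.0147).

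Of 9 tested genes of cysteine supply and use, 1 rose and 2 fell in BH-KO (33.3%, beside 28.6% of all genes) and 1 rose and 4 fell in H-KO (55.6%, beside 34.9%). Slc1a4, a neutral amino acid transporter, rose in both, to 91.5 ± 50.8 CPM in BH-KO against 7.13 ± 1.37 CPM in BH-WT (log2FC 3.68 ± 0.42, adjusted p = 4.69e-05) and to 13.9 ± 2.79 CPM in H-KO against 6.21 ± 2.21 CPM in H-WT (1.17 ± 0.42, adjusted p = 0.0418). Ahcy, which splits S-adenosylhomocysteine on the way from methionine to cysteine, fell in BH-KO (-1.30 ± 0.28, adjusted p = 0.00335). Csad, of taurine synthesis, and Slc3a1, part of a cystine transporter known from kidney and gut, fell in H-KO (-3.10 ± 0.81, adjusted p = 0.00916 and -2.72 ± 0.77, adjusted p = 0.0144). Slc1a5, another neutral amino acid transporter, fell in BH-KO (-1.32 ± 0.32, adjusted p = 0.0076) and in BH-HF-WT against BH-WT (-2.90 ± 0.36, adjusted p = 0.000844).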
